A study of Rattus norvegicus with 10 samples.

Results

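Nox4 and 9 genes of the proteins that work beside it or remove its product were followed in rat liver: Cyba, the dismutases Sod1 and Sod2, catalase (Cat), the glutathione peroxidases Gpx1 and Gpx4, and the peroxiredoxins Prdx1, Prdx5 and Prdx6. They were found by symbol in the TPM table, where each of the 10 symbols matched 1 of 32883 genes. Of those, 11083 genes, all 10 named ones among them, had at least 1 TPM in at least 5 samples and were kept for testing. Nox4 met that filter through the 5 SD samples alone, so it could be kept only as a gene that differs between the strains. TPM, the authors' measure of transcript abundance, scales expression by gene length to 1 fixed total per sample, so levels of different genes can be set side by side.

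The groups were 5 livers of Eisai hyperbilirubinemic rats (EHBR) and 5 of Sprague-Dawley (SD) rats, numbered 1 to 5 in each strain, all from males aged 5 weeks with no treatment named in the labels. EHBR is a mutant line of SD origin that lacks the canalicular export pump Mrp2, encoded by Abcc2, and accumulates conjugated bilirubin. Strain and the loss of Mrp2 go together here and cannot be told apart. Whole liver holds several cell types, so fewer cells of a type and less RNA per cell cannot be told apart either.

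Between 13.8 and 19.6 M reads per sample were assigned to genes, as worked out from the tables. Abcc2 stood at 60.0 to 271 TPM in SD and at 10.1 to 17.6 TPM in EHBR. Summed TPM of 7 hepatocyte genes ran from 139468 to 171348 in SD and from 159818 to 183108 in EHBR, so the labelled tissue shows its defining transcripts in every sample. In both strains many genes set samples 4 and 5 apart from samples 1 to 3. The sets did not overlap for 62.6% of kept genes in SD and 45.5% in EHBR. The mitochondrial share of TPM in SD was at most 13.4% in the first set and at least 17.0% in the second. In EHBR the sets overlapped, as that share reached 15.3% in the first and started at 15.1% in the second. This division was drawn from the values and the labels do not say what lies behind it, so strain differences are also given within each set.

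Nox4 is a membrane NADPH oxidase that passes electrons to oxygen and, unlike its phagocyte relatives, releases mostly hydrogen peroxide without needing a trigger. It works as a complex with p22phox, the product of Cyba. Superoxide is turned into hydrogen peroxide by the dismutases. Catalase breaks that peroxide down in peroxisomes, glutathione peroxidases reduce it with glutathione, and peroxiredoxins reduce it through a reactive cysteine. In liver, Nox4 is known in hepatocytes and in stellate cells, where TGF-beta induces it.

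The genes were chosen with the strain results of these tables known. Their strain differences, and the counts of calls among them, are given as a description and support nothing further.

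Annotated promoters of 9 of the 10 genes are held in the RefSeq table of the build GRCr8, and Prdx6 had no entry. The 250 bases before the start are shown for Nox4, which had the largest strain difference of the 10, and for Prdx1 and Sod2, which held the core of the antioxidant response element (ARE), the site of the factor Nrf2. They lie at chr1:150313639-150313888 (plus strand), chr5:135383656-135383905 (plus strand) and chr1:50050169-50050418 (minus strand). Each reads 5′ to 3′ on the gene's strand, and capitals mark matches found on either strand. The ARE core was searched as TGACNNNGC. The GC box, a site of Sp1-type factors, was searched as GGGCGG. The TATA box, which places the start of transcription, was searched as TATAAA, and the CCAAT box by the letters of its name. Matches were allowed to overlap each other.
Nox4: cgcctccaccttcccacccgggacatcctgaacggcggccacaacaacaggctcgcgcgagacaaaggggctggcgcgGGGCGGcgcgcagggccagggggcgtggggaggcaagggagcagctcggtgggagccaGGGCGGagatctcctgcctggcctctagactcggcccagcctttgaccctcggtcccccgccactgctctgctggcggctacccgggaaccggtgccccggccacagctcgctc
Prdx1: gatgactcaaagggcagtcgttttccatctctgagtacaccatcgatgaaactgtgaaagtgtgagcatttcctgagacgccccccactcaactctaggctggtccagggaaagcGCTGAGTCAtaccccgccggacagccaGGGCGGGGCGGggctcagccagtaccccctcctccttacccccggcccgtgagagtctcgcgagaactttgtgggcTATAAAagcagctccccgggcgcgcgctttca
Sod2: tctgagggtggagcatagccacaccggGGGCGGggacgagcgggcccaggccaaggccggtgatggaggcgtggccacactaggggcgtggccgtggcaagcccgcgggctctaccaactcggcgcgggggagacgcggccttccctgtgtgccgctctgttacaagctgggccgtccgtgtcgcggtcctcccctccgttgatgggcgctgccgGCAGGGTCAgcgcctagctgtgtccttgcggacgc
The Nox4 window was 72.8% G and C, against a median of 51.2% over 33469 promoter windows of that length, and held 2 GC boxes, with no match to the other 3 motifs. Prdx1 held 1 ARE core, 2 GC boxes that share a base and 1 TATA box, and Sod2 held 1 ARE core and 1 GC box. An ARE core was found in 2 of the 9 genes and in 10.1% of all windows, and a GC box in 8 of the 9 and in 30.5%. A TATA box was in 2 of the 9 genes and in 12.9% of all windows. For the CCAAT box the numbers were 3 of the 9 genes and 34.0%. A match describes the letters only.

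Nox4 was below 1 TPM in every EHBR liver and above it in every SD liver. The gene (ENSRNOG00000013925) lies on the plus strand of chromosome 1 from 150797084 to 150976194 in rn6, the build named in the submitters' processing notes. SD samples 1 to 5 had 18.9, 12.6, 15.7, 2.52 and 2.26 TPM, and EHBR samples 1 to 5 had 0.606, 0.474, 0.367, 0.235 and 0.478 TPM. Every EHBR sample was below every SD sample, and the lowest SD sample was 3.73 times the highest EHBR sample. Within SD, samples 1 to 3 were high and samples 4 and 5 low. Recovered read counts behind these values were 832, 500, 591, 129 and 121 in SD and 22, 17, 16, 10 and 16 in EHBR. For the 10 reads of EHBR sample 4 the exact 95% Poisson interval is 4.80 to 18.4 reads, which covers counting error only.

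The mean was 10.4 ± 7.64 TPM in SD and 0.432 ± 0.139 TPM in EHBR (n = 5 per strain), a ratio of 24.1, where ± gives the standard deviation here and throughout. On the log2(TPM + 1) scale, which understates changes at low levels, Nox4 fell by 2.62 (SE 0.49). The median kept gene differed by 0.15 on the same scale, and relative to it the difference of Nox4 was -2.78. Among samples 1 to 3 the SD mean was 32.7 times the EHBR mean, and among samples 4 and 5 it was 6.71 times. The log2 differences were -3.48 (SE 0.17) and -1.33 (SE 0.20).

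The strain difference of Nox4 in samples 4 and 5 minus that in samples 1 to 3 was 2.16 (SE 0.26) on the log2 scale, and 1.44 to 2.30 under the alternatives run. Of the other 9 genes, the largest such gaps were -0.50 (SE 0.20) for Prdx5, -0.38 (SE 0.12) for Gpx4 and 0.35 (SE 0.11) for Cat. Over all kept genes 0.271% passed limma's test of this gap. No p is given for the 10 genes, since both they and the division were chosen from these values, and Nox4 was kept only through the SD samples.

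**Figure D1:**
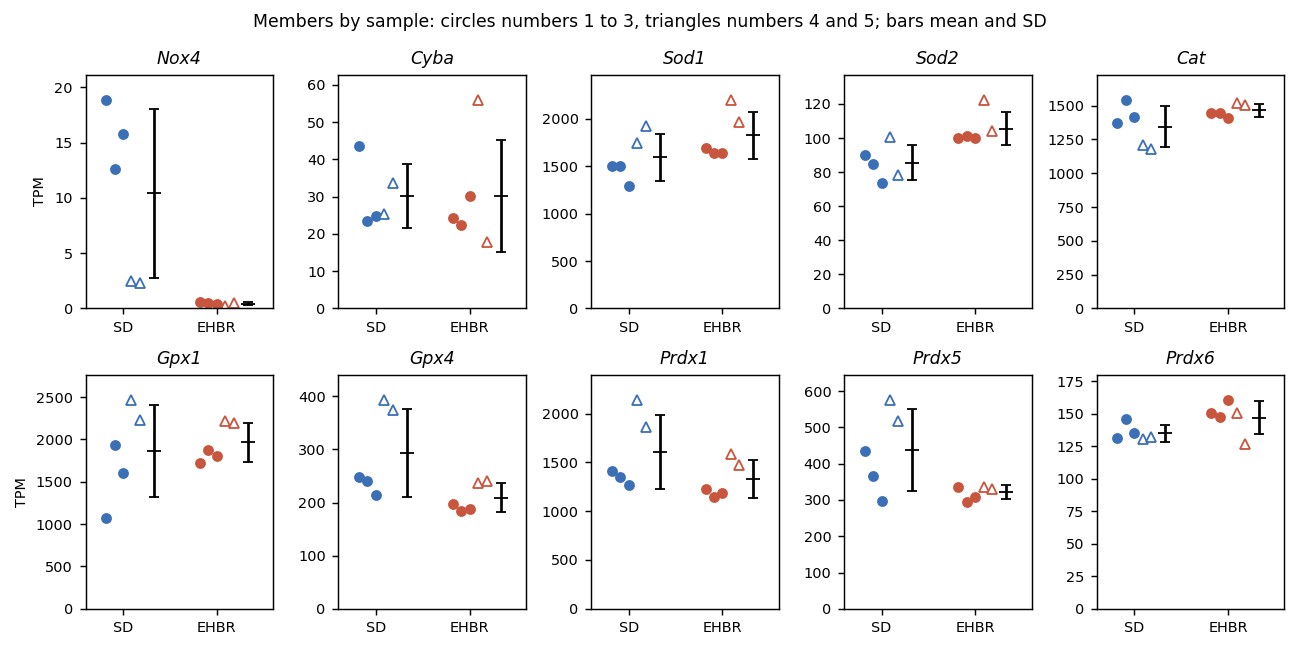
TPM of each of the 10 genes by strain, on axes that start at 0 (filled circles, samples 1 to 3; open triangles, samples 4 and 5; black bars, mean and SD of 5 samples). Nox4 is the 1 gene whose strains do not overlap, and its SD samples 4 and 5, at 2.52 and 2.26 TPM, lie far below SD samples 1 to 3.

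Cyba, the partner subunit that Nox4 shares with the phagocyte oxidase, did not follow Nox4. The gene lies on the minus strand of chromosome 19 from 55249616 to 55257876 in rn6. SD samples 1 to 5 had 43.7, 23.3, 24.7, 25.3 and 33.6 TPM, and EHBR samples 24.2, 22.5, 30.1, 56.0 and 18.0 TPM. The highest and the lowest value were both in EHBR, and the strains overlapped throughout. Means were 30.1 ± 8.57 TPM in SD and 30.2 ± 15.1 TPM in EHBR (n = 5 per strain), with a log2 difference of -0.07 (SE 0.28).

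EHBR sample 4, the highest in Cyba, was also the highest in the summed TPM of 11 Kupffer cell and macrophage markers. That sum was 961 there, against 513 to 753 in the other EHBR samples and 513 to 633 in SD. Cybb, the phagocyte oxidase core protein, had 15.9 TPM in that sample and 5.54 to 9.95 TPM in the other 9. Of the 11 markers, Clec4f, Cd163 and Vsig4 were not highest in EHBR sample 4, at 97.0, 5.62 and 24.2 TPM. In EHBR sample 3 they had 127, 9.10 and 27.3 TPM. Each other marker was highest in EHBR sample 4. None of the 11 macrophage markers was at 0 in any sample, and their part in the Cyba values was not tested. Neutrophil markers summed to 5.47 to 8.75 TPM in SD and 2.85 to 5.02 TPM in EHBR over 8 genes, of which up to 5 were at 0 in a sample.

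Stellate cell markers, relevant to Nox4 because these cells can express it, did not separate the strains. The sum over 9 genes was 112, 124, 128, 92.4 and 83.2 TPM in SD samples 1 to 5 and 118, 112, 106, 99.8 and 96.4 TPM in EHBR. None of the 9 was at 0, and none of the 8 kept ones was called in either direction. In both strains samples 4 and 5 had the lowest sums, as Nox4 did in SD. Colec11 supplied most of each sum, at 53.7 to 81.5 TPM in SD and 59.0 to 70.5 TPM in EHBR. Of the 8 kept, 4 did not overlap between the sets in both strains. Lrat, Colec11 and Hand2 were lower in samples 4 and 5, and Pdgfrb was higher. Over all kept genes 25.5% were lower in that way and 5.49% higher. The part of stellate cells in the Nox4 pattern was not tested. Endothelial markers summed to 92.14 to 127 TPM in EHBR and to 73.7 to 92.15 TPM in SD over 7 genes. Of these, 3 were called higher in EHBR (Stab1, Stab2 and Kdr) and 4 were not called, and after median centring Stab1 and Kdr lost the call (adjusted p = 0.0738 and 0.0755, limma).

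The sums of 2 other marker lists moved with strain or set. Those of 6 cholangiocyte genes did not overlap, at 15.3 to 17.5 TPM in SD and 12.3 to 13.9 TPM in EHBR, with neither of the 2 kept genes called. Epcam supplied most of each sum, at 10.1 to 14.8 TPM in SD and 8.70 to 10.6 TPM in EHBR. Krt19, the other kept gene, had the higher mean in EHBR (1.69 against 1.49 TPM). Erythroid markers, 7 genes, summed to 2987 to 3314 TPM in EHBR samples 1 to 3, to 1326 and 1639 TPM in EHBR samples 4 and 5, and to 982 to 2048 TPM in SD. Of the 6 kept, 1 was called higher in EHBR. The globin genes Hba-a1 and Hba-a2 passed limma's test of a strain difference that differs between the sets. Their gaps were -1.48 (SE 0.23) and -1.54 (SE 0.23) on the log2 scale. The sets were drawn from the values, so this is a description and no p is given. The part of these cells in the results for Nox4 and the other 9 genes was not tested.

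The dismutases had higher means in EHBR. Sod1 (chromosome 11, 30363280 to 30368862 in rn6), the copper-zinc enzyme of the cytosol, had 1498, 1497, 1289, 1745 and 1928 TPM in SD and 1693, 1643, 1634, 2201 and 1961 TPM in EHBR. EHBR was above SD within samples 1 to 3 and within samples 4 and 5, but the strains overlapped over all 10 samples. Its log2 difference was 0.20 (SE 0.13), and 0.03 when samples were first brought to the same median. Sod2 (chromosome 1, 47914759 to 47921587), the manganese enzyme of the mitochondrial matrix, had 90.2, 85.0, 73.8, 100.4 and 78.5 TPM in SD and 99.9, 101.1, 99.99, 122.6 and 104.0 TPM in EHBR. SD sample 4 alone reached into the EHBR range. The difference was 0.30 (SE 0.10), and 0.13 after median centring.

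Catalase (chromosome 3, 93379874 to 93412058 in rn6) had 1373, 1545, 1419, 1208 and 1179.6 TPM in SD and 1445, 1448, 1409, 1523 and 1507 TPM in EHBR. The strains overlapped among samples 1 to 3, where the log2 difference was -0.010 (SE 0.07), and not among samples 4 and 5, where it was 0.34 (SE 0.11). Over all samples the difference was 0.13 (SE 0.09), and it changed sign with upper-quartile FPKM (-0.033) and after median centring (-0.038).

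The glutathione peroxidases, both selenoenzymes, differed from each other. Gpx1 (chromosome 8, 117117430 to 117118522 in rn6), the cytosolic enzyme, was among the most abundant of the 10 genes, with 1074, 1939, 1606, 2467 and 2231 TPM in SD and 1722, 1881, 1807, 2223 and 2195 TPM in EHBR. The wide SD range contained the whole EHBR range. Its difference was 0.13 (SE 0.20) and turned to -0.04 with upper-quartile FPKM and after median centring. Gpx4 (chromosome 7, 12516352 to 12519154), which reduces lipid hydroperoxides in membranes, had 248, 241, 214, 393 and 374 TPM in SD and 196.5, 185, 187, 237 and 240.5 TPM in EHBR. EHBR was lower within each set of numbers, and EHBR samples 4 and 5 overlapped SD samples 1 to 3. The difference was -0.45 (SE 0.18), and -0.62 after median centring, with -0.30 (SE 0.08) among samples 1 to 3 and -0.68 (SE 0.11) among samples 4 and 5. Gpx4 overlaps Sbno2 on the opposite strand in rn6, whose mean was 69.8 TPM in SD and 50.6 TPM in EHBR. No source used here says whether counting took strand into account, so the Gpx4 values are uncertain.

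Of the peroxiredoxins, Prdx1 and Prdx5 had lower means in EHBR, as Gpx4 did, and Prdx6 did not. Prdx1 (chromosome 5, 135536413 to 135551990 in rn6), the abundant cytosolic enzyme, had 1417, 1347, 1274, 2141 and 1861 TPM in SD and 1231, 1149.7, 1188, 1591 and 1475 TPM in EHBR. EHBR was lower within each set, but EHBR samples 4 and 5 were above SD samples 1 to 3. Its difference was -0.26 (SE 0.16), and -0.43 after median centring. Prdx5 (chromosome 1, 222164462 to 222167447), found in mitochondria, peroxisomes and cytosol, had 435, 367, 296, 576 and 517 TPM in SD and 337, 294, 309, 337 and 330.03 TPM in EHBR. EHBR samples kept to a narrow range, and SD samples 4 and 5 were far above it. The difference was -0.41 (SE 0.16), and -0.58 after median centring, with -0.21 (SE 0.14) among samples 1 to 3 and -0.71 (SE 0.12) among samples 4 and 5. Prdx6 (chromosome 13, 79077033 to 79088127), the 1-cysteine member that also acts on phospholipids, had 131, 146, 135, 130.2 and 132 TPM in SD and 150.5, 147, 160.5, 150.3 and 126 TPM in EHBR. EHBR sample 5 was the lowest of all 10. The difference was 0.12 (SE 0.08) and changed sign with upper-quartile FPKM (-0.042) and after median centring (-0.049).

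Counted together, 5 of the 10 genes had a higher and 5 a lower mean log2 level in EHBR, with a median difference of 0.02 against 0.15 for all kept genes. At an adjusted p under 0.05 by limma, 1 of the 10, Nox4, was lower and the other 9 were not called, where 5.45% of all kept genes were called in either direction, 3.82% as higher and 1.63% as lower. The strains did not overlap for 1 of the 10 genes, Nox4, against 8.47% of kept genes, 6.45% with EHBR higher and 2.02% with EHBR lower. Within samples 1 to 3 they did not overlap for 6 genes, against 29.1% of kept genes, and within samples 4 and 5 for 8 genes, against 64.8%. With a term for the set of numbers, 5 of the 10 were called (Sod2 higher; Nox4, Gpx4, Prdx1 and Prdx5 lower), where 16.9% of all kept genes were. Nothing is read from these counts, since the genes were chosen on this contrast and the sets were drawn from the values. Without Nox4 and Cyba, the other 8 genes summed to 7360.1 ± 1139 TPM in SD and 7368 ± 743 TPM in EHBR (n = 5 per strain).

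**Figure D2:**
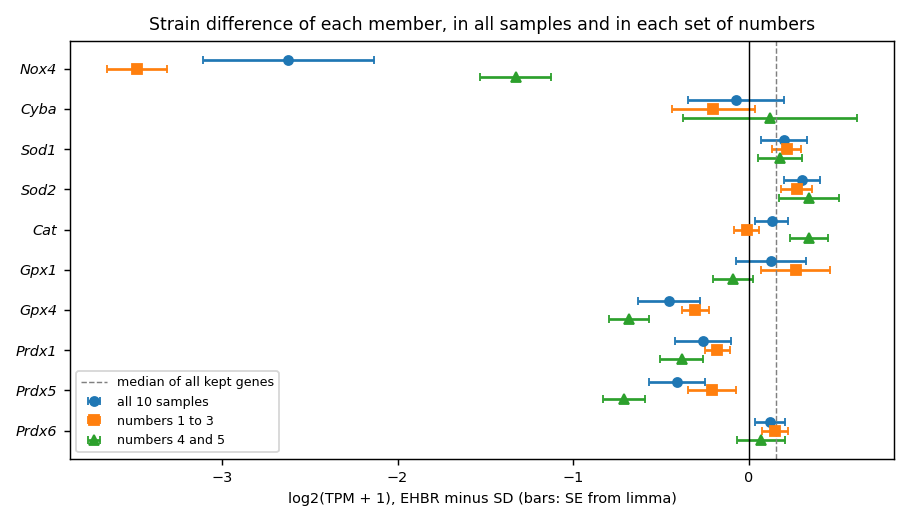
Log2(TPM + 1) difference, EHBR minus SD, with SE from limma, for each gene in all 10 samples (circles), in samples 1 to 3 (squares) and in samples 4 and 5 (triangles); the dashed line is the median of all kept genes at 0.15. Nox4 lies far to the left at -3.48 and -1.33 in the 2 sets, while over all samples the farthest of the other 9 genes from 0 is Gpx4 at -0.45.

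Several of these genes also differed between the sets of numbers. Samples 4 and 5 did not overlap samples 1 to 3 for 7 of the 10 genes in SD and 6 in EHBR, against 62.6% and 45.5% of kept genes. In both strains, Sod1, Gpx1, Gpx4 and Prdx1 were higher in samples 4 and 5 than in any of samples 1 to 3, and none of the 10 was lower in both. Over all kept genes 5.49% were higher in that way and 25.5% lower. For Gpx4 the mean of samples 4 and 5 was 1.64 times that of samples 1 to 3 in SD and 1.26 times in EHBR, and for Prdx1 1.49 and 1.29 times. Catalase went both ways, with the SD mean of samples 4 and 5 at 0.826 of that of samples 1 to 3 and the EHBR mean at 1.06. For Nox4 the SD mean of samples 1 to 3 was 6.59 times that of samples 4 and 5, and the EHBR samples overlapped. Since the division was drawn from the values, these are descriptions with no test.

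**Figure D3:**
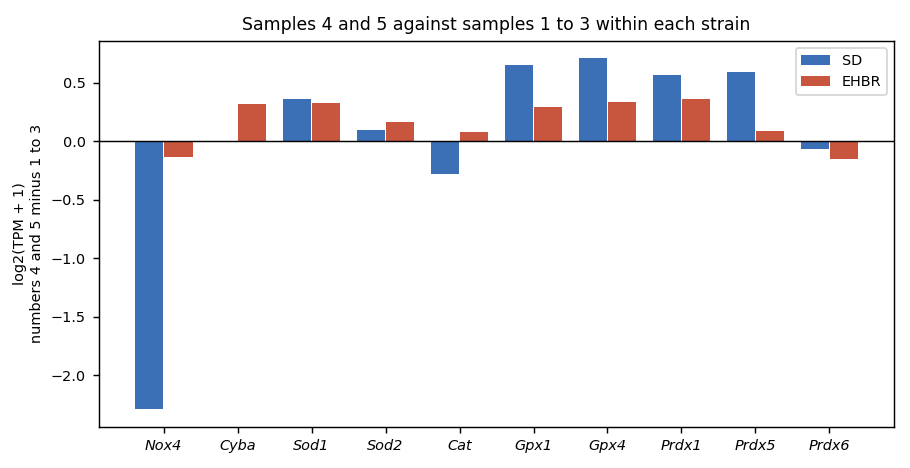
Bars give the log2(TPM + 1) mean of samples 4 and 5 minus that of samples 1 to 3, in SD (blue) and EHBR (red), for each gene. Sod1, Gpx1, Gpx4 and Prdx1 are above 0 in both strains, and the SD bar of Nox4 reaches -2.29 against -0.13 in EHBR.

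In SD the levels of the 10 genes covered a wide range. Gpx1, Prdx1, Sod1 and Cat formed the top, with means of 1863, 1608, 1591 and 1345 TPM. The range of Gpx1, the widest, covered those of the other 3, so their order is not clear. Prdx5 at 438 ± 112 TPM and Gpx4 at 293.9 ± 83.0 TPM (n = 5) overlapped each other and lay below them. Prdx6 followed at 135 ± 6.34 TPM, Sod2 at 85.6 ± 10.4 TPM, Cyba at 30.1 ± 8.57 TPM and Nox4 at 10.4 ± 7.64 TPM, with no overlap between neighbours from Gpx4 down. In EHBR the order was the same except that Sod1, at 1826 ± 249 TPM, came before Prdx1 and Cat, and Cat, at 1466 ± 47.5 TPM, before Prdx1, at 1327 ± 195 TPM.

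Genes whose levels over the 10 samples were most like those of Nox4 included Abcc2 itself. Likeness was the mean absolute distance between profiles of log2(TPM + 1) scaled to mean 0 and SD 1 over the 10 samples. The closest were RGD1559960 (distance 0.132), the aldehyde oxidase gene Aox3 (0.136), Abcc2 (0.161), Tmem132a (0.163) and Mboat1 (0.173). All 5 were higher in every SD than in any EHBR sample, which likeness to Nox4 makes likely. Aox3 had 14.3, 17.7, 15.9, 2.45 and 1.59 TPM in SD and 0.664 to 0.855 TPM in EHBR. Abcc2 had 199, 224, 271, 60.0 and 66.4 TPM in SD and 17.2, 17.6, 12.3, 11.9 and 10.1 TPM in EHBR. In both, as in Nox4, SD samples 4 and 5 lay between SD samples 1 to 3 and the EHBR samples. These genes were picked for their likeness, so they are described with no test.

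**Figure D4:**
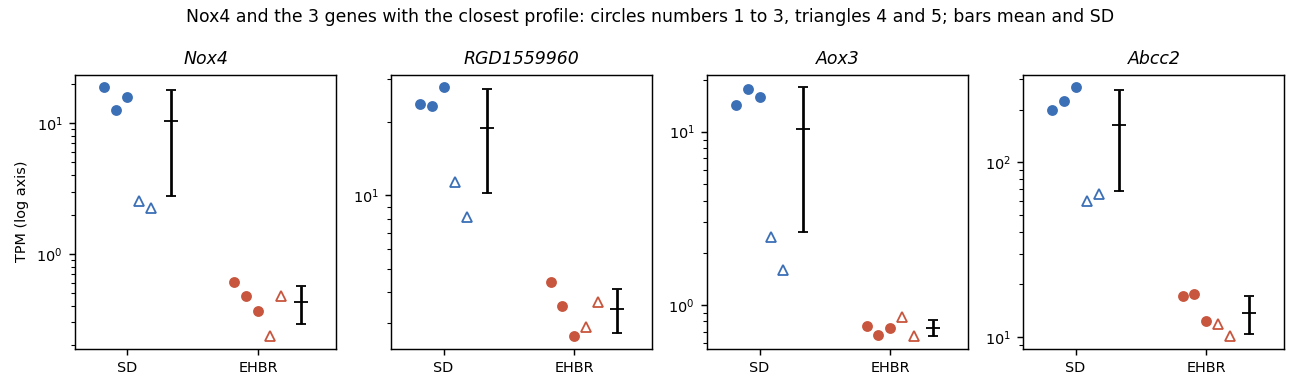
TPM on log axes for Nox4 and the 3 genes nearest to it in profile (filled circles, samples 1 to 3; open triangles, samples 4 and 5; bars, mean and SD of 5 samples). In all 4 genes the SD samples 4 and 5 sit below SD samples 1 to 3 and above the EHBR samples.

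Genes around the set, 118 symbols in 8 lists, were read from the same test, and 99 of them were kept. Of these, 11 were higher in EHBR and 3 lower, 14.1% against 5.45% of all kept genes, with a median difference of 0.17 against 0.15. The lists were chosen with earlier results of these data known, so nothing is read from the share of list genes called. The direction followed the scaling: after median centring 2 were higher (Gclc and Secisbp2l) and 5 lower.

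None of the 7 kept NADPH oxidase subunits and relatives passed the test (median 0.14). Poldip2, a Nox4-binding protein and the most abundant of them, had means of 132 ± 1.45 TPM in SD and 159 ± 6.86 TPM in EHBR (log2 0.26, adjusted p = 0.0559, limma). It was called, among other alternatives, with sample weights (adjusted p = 0.0205) and with a term for the set of numbers (adjusted p = 0.0116). It was not called with FPKM (adjusted p = 0.23), with upper-quartile FPKM (adjusted p = 0.693) or after median centring (log2 0.09, adjusted p = 0.742). Of the other catalytic subunits, Cybb had means of 7.29 ± 1.57 TPM in SD and 9.72 ± 3.66 TPM in EHBR (log2 0.33, adjusted p = 0.392), near the SD level of Nox4. Nox1 was at 0.26 to 0.51 TPM, and Nox3 was listed at 0 in every sample. Of 9 other dismutase and peroxidase genes, 1 fell and 8 were not called (median 0.09). Ccs, the chaperone that loads copper into Sod1, fell from a mean of 107 ± 10.6 TPM in SD to 68.2 ± 4.07 TPM in EHBR, or -0.64 on the log2 scale (SE 0.09; limma's adjusted p = 0.00204). It kept its call under every alternative run for single genes.

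Some genes that make or recycle glutathione were higher in EHBR. Of 17 thioredoxin and glutathione recycling genes, 3 rose and none fell (median 0.11). Glutathione synthetase, Gss, went from 38.9 ± 5.17 to 68.2 ± 7.88 TPM (log2 0.80, adjusted p = 0.00209, limma). Glutathione reductase, Gsr, went from 69.6 ± 4.54 to 95.4 ± 3.63 TPM (log2 0.45, adjusted p = 0.00583). Both lost the call after median centring (adjusted p = 0.0849 and 0.194). Gclc, the other called gene, kept it (log2 0.70, limma's adjusted p = 0.015, and 0.0302 after median centring). Gclm, not called, had the lower mean in EHBR, 119 against 150 TPM (log2 -0.30). Gpx1 and Gpx4 need selenocysteine, and of 10 genes of selenoprotein synthesis and supply 3 rose (median 0.23). Sephs2, which makes the selenium donor, went from 70.7 ± 17.2 to 141 ± 33.5 TPM (log2 0.99, adjusted p = 0.0143), and Scly, which frees selenium from selenocysteine, from 77.4 ± 6.25 to 106 ± 14.3 TPM (log2 0.44, adjusted p = 0.0388). After median centring their adjusted p was 0.059 and 0.267, and Scly also lost its call without SD sample 1, 3 or 4 or EHBR sample 1, 2 or 3 (adjusted p up to 0.113).

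Among 18 oxidases that release hydrogen peroxide, 3 rose and 2 fell (median 0.25). Pipox, the peroxisomal sarcosine oxidase, fell from a mean of 147 ± 20.8 TPM to 64.7 ± 2.88 TPM (log2 -1.16, SE 0.10; limma's adjusted p = 7.76e-05) and kept its call under the alternatives run. Aox3 was the other lower gene (log2 -2.29). Like Nox4, it met the filter through the 5 SD samples alone, so its call is a description and no p is given. The call was lost without any 1 sample other than SD sample 4 or 5. D-amino acid oxidase, Dao, rose from 76.6 ± 10.4 to 108 ± 10.5 TPM (log2 0.50, adjusted p = 0.024), a call lost after median centring (adjusted p = 0.393) and without SD sample 2 or EHBR sample 2, 3 or 5 (adjusted p up to 0.0707). Of 19 genes of peroxisome assembly and membrane, Pex14 and Pex3 rose, by 0.45 and 0.42 on the log2 scale (adjusted p = 0.0213 and 0.0384; 0.351 and 0.213 after median centring). Pex14 was not called without SD sample 1 or EHBR sample 1, 2 or 3 (adjusted p up to 0.0697), and Pex3 kept its call without 1 sample only for SD sample 2 (adjusted p up to 0.118). None of 11 TGF-beta signalling and response genes and none of 8 regulators of antioxidant genes was called (medians 0.24 and 0.21). Col3a1, a fibrillar collagen gene, had means of 92.8 ± 33.0 TPM in SD and 109.9 ± 13.4 TPM in EHBR (log2 0.31, adjusted p = 0.444). Nfe2l2, the gene of Nrf2, had means of 51.3 ± 14.1 TPM in SD and 42.4 ± 8.85 TPM in EHBR (log2 -0.26, adjusted p = 0.462).

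**Figure D5:**
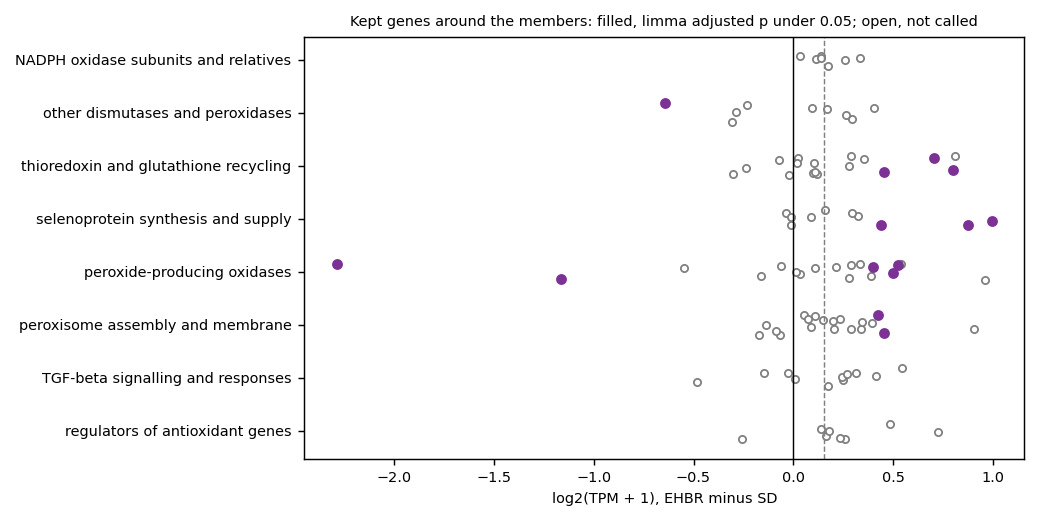
Log2(TPM + 1) difference, EHBR minus SD, for the 99 kept genes of the 8 lists (filled, adjusted p under 0.05 by limma; open, not called; vertical position within a list is arbitrary). The 2 leftmost filled points are Aox3 at -2.29 and Pipox at -1.16, and the dashed line is the median of all kept genes.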

How the data were processed

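Per the labels' protocols, libraries were strand-specific and made from poly(A) RNA of liver. Tools named in the submitters' processing notes are HISAT2 2.1.0, featureCounts 1.6.3, Trimmomatic 0.38 and FastQC 0.11.7, without settings, and the build is rn6. The authors deposited TPM, FPKM and upper-quartile FPKM of 32883 genes, 1 column per sample. Samples were grouped by title. Nothing in the labels describes litters or pairing. A p-value sets the strain difference against the spread of these samples within strains, part of which may be technical.

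The genes and lists were chosen with earlier results of these data known. Limma 3.58.1 (R 4.3.3), with trend, was run on log2(TPM + 1) for the 11083 kept genes, two-sided, Benjamini-Hochberg adjusted, threshold 0.05; strain was the factor, and strain, set of numbers and their interaction in the second fit. It was tested on simulated data. Of 186 listed symbols 179 matched. Named list genes are up to 2 called genes per list by adjusted p, or else the most abundant, and the 5 profiles nearest Nox4. Gclc, Gclm, Secisbp2l, Cybb, Nox1, Nox3 and genes in the closing section were named after their values were seen. Whole reads were recovered from upper-quartile FPKM with a tolerance of 0.0002 reads. TPM and FPKM rescaled to the same total differed by at most 0.14 on the log2 scale for the 10 genes. Tables and figures used Python 3.11.15.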

Additional observations from a re-analysis of the deposited data

Results flagged for a closer look

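The strain difference of Nox4 differed between samples 1 to 3 and samples 4 and 5, by 2.16 on the log2(TPM + 1) scale (SE 0.26). The gene and the division were both chosen from these values, so this is a description. No p is given for it. Without 1 sample the gap was 2.03 to 2.30. It rests on SD samples 1 to 3 at 12.6 to 18.9 TPM against SD samples 4 and 5 at 2.26 and 2.52 TPM.

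Sod2 in EHBR had 1 sample far from the others, EHBR sample 4 at 122.6 TPM against 99.9 to 104.0 TPM. Chance sets apart about 1 in 20 groups in this way, and 20 groups were looked at.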

How the results depend on the processing

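Of the 10 genes, Nox4, Sod1, Sod2, Gpx4, Prdx1 and Prdx5 kept the sign of their strain difference under all alternatives run. The difference of Nox4 was -3.86 with a pseudocount of 0.1, -1.33 with a pseudocount of 5 and -1.33 in samples 4 and 5, and -2.98 to -2.33 without 1 sample. Sod2 moved to 0.15 with upper-quartile FPKM and 0.13 after median centring, Cat to -0.033 and -0.038, and Prdx6 to -0.042 and -0.049. Cat was -0.010 in samples 1 to 3 and 0.34 in samples 4 and 5, and Prdx5 was -0.71 in samples 4 and 5. Cyba and Gpx1 changed sign within their spread, from -0.32 to 0.08 and from -0.06 to 0.24 without 1 sample. For Nox4 the gap between the strain differences of the sets was 2.27 with a pseudocount of 0.1 and 2.16 with the replicate block. Without 1 sample the gap was 2.03 to 2.30. No p is given, since the gene and the division were chosen from these values.

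Over all kept genes, 423 were called higher and 181 lower. Higher genes numbered 217 with upper-quartile FPKM, 193 after median centring, 719 with sample weights, 639 with the replicate block and 1506 with a term for the set of numbers. Lower genes numbered 290 after quantile normalization, 292 with sample weights, 372 with the term and 112 in samples 4 and 5. Without 1 sample they were 243 to 439 and 135 to 179, with 276, 243 and 269 higher genes without EHBR sample 1, 2 or 3. Higher genes made up 70.0% of the calls; median centring, which shifts the median gene from 0.15 to -0.02, brought this to 42.0%, upper-quartile FPKM to 45.4%, quantile normalization to 52.0% and FPKM to 58.8%. An exact rank-sum test gave 0 higher and 0 lower genes once adjusted; unadjusted, 1756 had p under 0.05, and 0.00794 is the smallest p that 5 against 5 samples allow.

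Of the genes around the set, 2 were higher after median centring, 2 with upper-quartile FPKM, 5 with FPKM, 7 after quantile normalization and 23 with the term; 5 were lower with upper-quartile FPKM, 5 after median centring, 6 with sample weights and 5 with the term. Without 1 sample they were 4 to 9 and 2 to 4, with 4 higher genes without EHBR sample 2 or 3 and 5 without SD or EHBR sample 1. Same-numbered samples correlated across genes in their deviations at 0.07 to 0.29, below 0.1 for number 3. Samples of different numbers reached 0.40 (SD sample 5 with EHBR sample 4), so no closer match by number was seen. These values cannot settle whether the samples were paired. With the replicate block the calls over all kept genes went from 604 to 861, with Gpx4 called beside Nox4 among the 10 genes.

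Depth limits Nox4 in EHBR, where 10 to 22 reads stand behind each value.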

Other observations

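Within 2 Mb of Nox4 the tables list 42 genes, of which 4 were kept, Nox4 included. The other 3 were not called: Ctsc, a lysosomal protease gene, had a log2 difference of 0.08 (adjusted p = 0.546, limma), Rab38 of 0.13 (adjusted p = 0.719) and Tmem135 of 0.34 (adjusted p = 0.142).

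Within SD, samples 4 and 5 did not overlap samples 1 to 3 for Hao2 and Aox1 of the peroxide-producing list, as for 62.6% of kept genes. Others of that list, such as Acox3 and Xdh, did so too. Hao2, a peroxisomal hydroxyacid oxidase gene, was at 626, 536, 536, 310.03 and 386 TPM in SD samples 1 to 5 and at 271 to 391 TPM in EHBR, so SD samples 4 and 5 lay in the EHBR range. Its strain difference did not pass the test (log2 -0.55, adjusted p = 0.113, limma). Aox1, a relative of Aox3, was at 126, 147, 80.7, 28.5 and 56.6 TPM in SD and at 139 to 157 TPM in EHBR, so the strain means ran opposite to those of Aox3. The difference of Aox1 did not pass either (log2 0.96, adjusted p = 0.153).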
